A study of Mus musculus with 94 samples.

Results

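The 30 cells described here are single cells from mouse bone marrow, labelled as CD34-negative basophils. The reads of a cell described below went against this label. The 30 cells are the 15 with the most and the 15 with the fewest reads of the chemokine genes Ccl3 and Ccl4. They were chosen from 46 of the 47 CD34-negative cells, those with at least 50000 gene reads, in a series of 94 single cells. Cells were ranked by the sum of Ccl3 and Ccl4 in CPM (counts per 1000000 gene reads). The 15 cells at the top are called high, the 15 at the bottom low, and the 16 between them middle. The comparison asks whether cells with much Ccl3 and Ccl4 also carry the transcripts of an activation or immediate-early programme.

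All cells came from female C57BL/6 mice, and the labels name 3 mice without saying which animal gave which cell. High, middle and low cells share a sort gate, for live marrow cells that lacked lineage markers, Sca1 and CD34 and carried FcεRI, the high-affinity IgE receptor. The other 46 kept cells came from the same gate with CD34 present. No cell was treated, and nothing in the labels separates high from low cells other than their own reads. Each side therefore counts as 1 sample, the values are a description, and no test was run.

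Basophils are rare granulocytes that release histamine, lipid mediators, cytokines and chemokines when antigen cross-links IgE on their surface. Ccl3 and Ccl4, also called MIP-1α and MIP-1β, attract leukocytes to sites of inflammation. Receptor signals can switch on immediate-early genes within minutes and without new protein synthesis. They include the Fos and Jun families, whose proteins pair to form the transcription factor AP-1, and feedback regulators such as Dusp1 and Zfp36.

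Ccl3 (ENSMUSG00000000982) lies at chr11:83647844-83649355 on the minus strand of mm10, and Ccl4 (ENSMUSG00000018930) at chr11:83662584-83664683 on the plus strand, both protein-coding and 13228 bases apart. The 250 bases before the start site of Ccl3, the gene that set most of the ranking, are shown with those of Fosb and Fos, AP-1 genes described below (RefSeq, GRCm38.p6, 5′ to 3′ on each gene's strand). The Ccl3 stretch is chr11:83649379-83649628 on the minus strand, that of Fosb chr7:19310046-19310295 on the minus strand, and that of Fos chr12:85473640-85473889 on the plus strand. Capitals mark matches to the core of the cAMP response element, TGACG, and to the NF-kappaB motif.
Ccl3: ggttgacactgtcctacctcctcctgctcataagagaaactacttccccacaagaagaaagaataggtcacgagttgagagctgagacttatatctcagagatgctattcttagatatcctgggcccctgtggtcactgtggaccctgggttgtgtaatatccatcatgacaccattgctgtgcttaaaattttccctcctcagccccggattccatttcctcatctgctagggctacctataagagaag
Fosb: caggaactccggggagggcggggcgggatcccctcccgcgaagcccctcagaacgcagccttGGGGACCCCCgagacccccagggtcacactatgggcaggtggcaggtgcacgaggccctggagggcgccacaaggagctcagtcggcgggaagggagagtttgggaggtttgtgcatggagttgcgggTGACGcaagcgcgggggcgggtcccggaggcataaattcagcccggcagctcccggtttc
Fos: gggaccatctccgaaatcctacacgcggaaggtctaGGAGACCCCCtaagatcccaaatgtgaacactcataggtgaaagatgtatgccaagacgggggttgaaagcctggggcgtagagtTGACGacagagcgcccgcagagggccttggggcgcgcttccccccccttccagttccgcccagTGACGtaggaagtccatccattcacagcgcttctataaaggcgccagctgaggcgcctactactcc

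Motifs were searched on both strands of these stretches, and none of the matches overlaps another. The Fosb stretch held TGACG from 60 to 56 bases before the start site and an NF-kappaB motif from 188 to 179. The Fos stretch held TGACG from 129 to 125 and from 66 to 62 bases before the start site, and an NF-kappaB motif from 214 to 205. None of the letters searched, which also included the AP-1 motif TGANTCA and the CArG box, was found in the Ccl3 stretch. Among 32817 stretches of this length in RefSeq, 17.7% held TGACG, 7.25% the NF-kappaB motif, 6.75% TGANTCA and 1.47% the CArG box. A match is a match of letters only. Of 9 genes looked up, 6 had an entry (Ccl3, Fosb, Fos, Jun, Jund and Zfp36), and Ccl4, Rgs1 and Trib1 did not.

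Reads that mapped to genes numbered 485983 to 919997 per high cell (median 781986) and 262944 to 912020 per low cell (median 705579). They added up to 11198634 for the high side and 10376765 for the low side. Gene reads per read of the ERCC spike-in RNA had a median of 6.82 in high and 8.30 in low cells, and over the 46 cells their Spearman rho with the summed Ccl3 and Ccl4 level was -0.34 (Pearson r -0.39). After drawing 200000 reads from every cell, the median number of genes with a read was 4409 in high and 4657 in low cells. The part of these differences in the results was not tested.

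Low cell 10 went against its label. It carried 12270 CPM of Cd74, the invariant chain of MHC class II, 1833 of C1qa, 3119 of C1qb, 966 of Csf1r and 517 of Cd68, genes of macrophages. In the other 45 cells C1qa and C1qb had no read and Cd74 did not exceed 2.41 CPM. Some of its basophil genes were near 0, with 7.61 CPM of Fcer1a, 7.61 of Ms4a2 and 3.80 of Gata2, against lowest values of 223, 481 and 929 CPM in the other 45 cells. Prss34, Mcpt8, Cpa3 and Cd200r3, at 118, 45.6, 26.6 and 26.6 CPM, lay inside the range of the other 45 cells. Their lowest values there were 17.5, 10.6, 2.06 and 20.6 CPM and their medians 6702, 2546, 1582 and 3376. Cell 10 was the shallowest low cell, with 3.80 CPM of Ccl3 and Ccl4 together, and results are also given without it. Low cells 25, 28 and 36 stood apart in another way and together held 88.6% of the low side's reads of 20 proliferation genes. Prss34, a basophil protease, reached 88510 CPM or more in each of these 3 cells, against a low-side median of 24080. High cell 23 stood apart in Adgre1, a macrophage gene, of which it held most reads, with Fcer1a at 2477 CPM. Genes of mast cells and megakaryocytes were at or near 0 on both sides, with summed levels of at most 0.10 CPM.

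The level that set the ranking ran without a gap from high to low. Summed Ccl3 and Ccl4 was 1771 to 3704 CPM in high cells (median 2454), 708 to 1754 in middle cells (median 1080) and 0 to 691 in low cells (median 393). The last cell inside the high side had 1771 CPM and the next, a middle cell, 1754. The last middle cell had 708 CPM and the first low cell 691. Ccl3 made up 83.4% of the summed level on the high side and 84.7% on the low side. Scaled per kilobase of exon, Ccl3 reached 2772 CPM per kilobase in high and 411 in low cells, and Ccl4 641 and 86.1.

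The genes did not follow each other closely from cell to cell. Ccl4 ranged from 0 to 1274 CPM in high cells (median 319) and from 0 to 355 in low cells (median 26.2), so the sides overlapped in Ccl4. Ccl3 ranged from 1052 to 2834 CPM in high cells (median 2202) and from 0 to 691 in low cells (median 270). Over the 46 cells, which are not replicates, Ccl3 and Ccl4 had a Spearman rho of 0.35 (Pearson r 0.28). Among the 46 CD34-positive cells the median sum was 6.39 CPM, 11 had no read of either gene, and 1 cell, at 3053 CPM, lay above the last high cell.

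**Figure D1:**
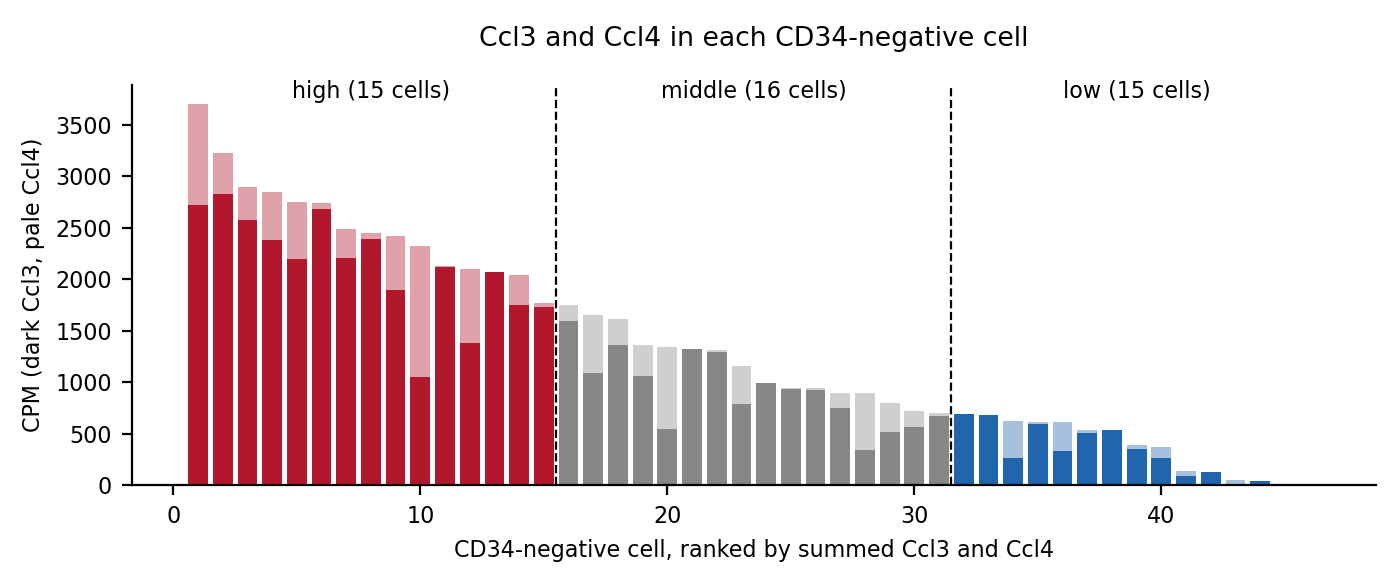
Bars give the CPM of Ccl3 (dark) and Ccl4 (pale, stacked) in each of the 46 CD34-negative cells, in order of their sum, with high cells red, middle cells grey and low cells blue. The sum runs from 3704 CPM to 0, and the dashed lines stand where it passes from 1771 to 1754 and from 708 to 691 CPM.

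Many genes differed between the pools of 15 cells, in both directions. Of 9765 genes with a read in at least 5 of the 30 cells, Ccl3 and Ccl4 set aside, 1429 (14.6%) were at least 2-fold higher in high cells and 2212 (22.7%) at least 2-fold lower. These folds are on the log2(CPM + 1) scale of summed reads, and their median over all genes was -0.07. They are the background against which the counts below are to be read. Without cell 10 the numbers were 1450 and 2142 of 9611 genes.

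Immediate-early genes were higher more often than lower in high cells. Of 44 listed, 32 were measured, and 14 were at least 2-fold higher and 4 at least 2-fold lower, with a median log2 fold of 0.78 against -0.07 over all genes. Together the 44 genes made up 5260 CPM on the high side, 3462 in the middle cells, 2411 on the low side and 1474 in CD34-positive cells. Per cell, the summed level was 1710 to 10885 CPM in high cells (median 5310) and 583 to 5127 in low cells (median 2430). The sides overlapped, with the highest low cell just under the median of the high cells. Without cell 10, 13 of 31 measured genes were at least 2-fold higher and 4 lower, with a median of 0.79.

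Part of these calls rested on 1 cell. When each gene was counted without its top cell, 9 of the 14 genes were still at least 2-fold higher, 2 were higher by less and 3 were lower. The median of the list was then 0.32, and that of all genes -0.28. Of 73 genes named here that were past 2-fold, leaving out 1 cell moved the fold of 50 by over 1.5 times. Scaling by ERCC reads in place of gene reads moved the median of all genes from -0.07 to -0.51 and that of the list to 0.29.

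Fos, Fosb, Jun, Junb and Jund, of the AP-1 family, were at least 2-fold higher on the high side. Their summed level had medians of 992, 334 and 38.5 CPM in high, middle and low cells. The highest values were 3817, 6303 and 1397 CPM, so the cell with the most was a middle cell. Of the 22 listed immediate-early transcription factors 12 were measured, and 6 were at least 2-fold higher in high cells and 0 at least 2-fold lower. Fosl2, a further Fos relative, had pooled levels of 174 and 144 CPM (log2 fold 0.27), and its median in high cells, 30.9 CPM, was under that in low cells. Fosb, an AP-1 subunit of the Fos family (ENSMUSG00000003545, chr7:19302696-19310051, minus strand), ranged from 0 to 315 CPM in high cells (median 103) and from 0 to 69.8 in low cells (median 0). The highest Fosb level, 646 CPM, was in a middle cell. Fosb had a read in 12 of 15 high, 6 of 16 middle and 2 of 15 low cells at 200000 reads each, and no low cell passed the high median. The pools held 109 and 7.04 CPM, a log2 fold of 3.77 (95% Poisson bounds 3.40 to 4.16, for counting error only), and 5.11 without cell 1.

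Jun, the partner of Fos proteins in AP-1 (ENSMUSG00000052684, chr4:95049034-95052222, minus strand), ranged from 0 to 1705 CPM in high cells (median 321) and from 0 to 964 in low cells (median 0). The highest Jun level, 5013 CPM, was in a middle cell. Jun was detected in 12 high, 9 middle and 4 low cells at the same depth, and 1 low cell, cell 1, passed the high median. The pooled log2 fold was 2.81 (bounds 2.68 to 2.94), and 5.65 without cell 1. Ranked by Ccl3 alone, Jun stood at 0.98 and Jund at 0.92, just under 2-fold. Jund, a Jun family member that is often present in resting cells, ranged from 0 to 228 CPM in high cells (median 81.8) and from 0 to 76.5 in low cells (median 9.35). Every low cell lay under the high median of Jund, and the pooled log2 fold was 2.26 (bounds 1.99 to 2.53).

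Fos was read in fewer cells. It had 2627 reads on the high side, in 6 of 15 cells with up to 1441 CPM, and none in the 15 low cells, so it was at least 811-fold higher against a floor of 3 reads over the low pool. When cells were ranked by Ccl4 alone the log2 fold of Fos was 1.82. Of the reads of Fos cell 9 held 42.8%. Junb, a further Jun relative, was detected in 7 high and 6 low cells with a log2 fold of 1.85, and the direction of Junb changed when cells were ranked by Ccl3 alone (-0.50).

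**Figure D2:**
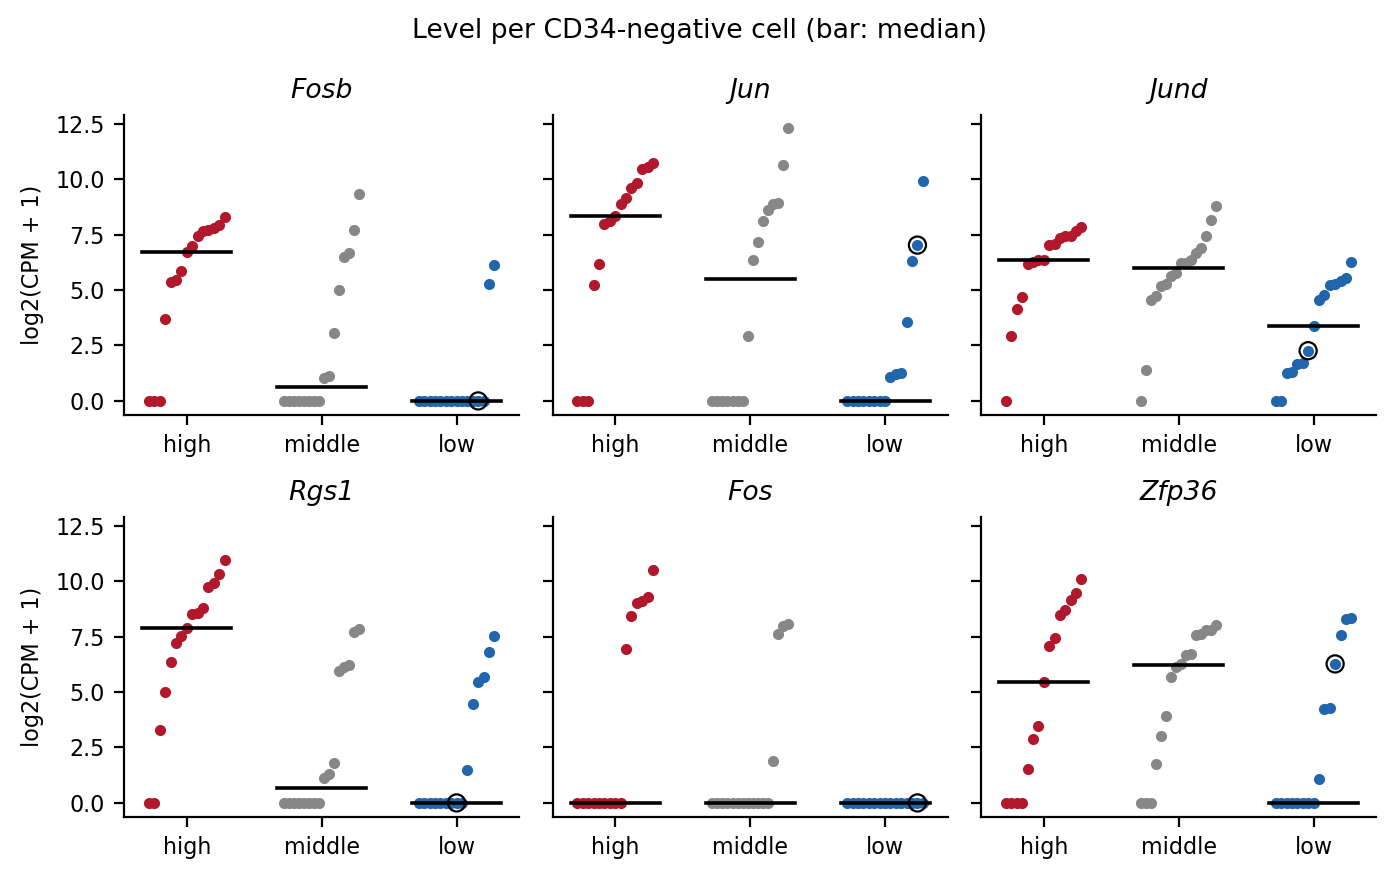
Points are CD34-negative cells, with the level of each gene as log2(CPM + 1), high cells red, middle cells grey and low cells blue. Bars are medians and the ringed point is low cell 10. Fosb and Rgs1 have medians of 103 and 233 CPM in high cells and 0 in low cells, and Fos has no read in any low cell.

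Among the other factors, the Egr and Nr4a genes described here and Atf3 were read in few cells or none. Egr1, a zinc-finger factor induced by growth and antigen receptor signals, had 52 reads on the high side and 1 on the low side, a ratio of 48.2 (95% counting interval 8.28 to 1939), and was detected in 2 high cells at 200000 reads. Cell 14 held 83.0% of the reads of Egr1. Egr2 and Egr3 had 1 read each, all in high cells, and Atf3 had none in either pool. Nr4a1, a nuclear receptor switched on by antigen receptors, was read only in cell 10 among the 46 cells, at 152 CPM. High cells thus carried AP-1 reads with Egr and Nr4a genes near 0.

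Among the regulators of the immediate-early response, 20 of 22 were measured. At least 2-fold higher were 8, against 14.6% over all genes, and at least 2-fold lower 4, near the 22.7% over all genes. Without cell 10 these were 6 and 4 of 19, with a median log2 fold of 0.73. Rgs1, which shortens signalling of chemokine and other G-protein-coupled receptors (ENSMUSG00000026358, chr1:144242296-144249242, minus strand), ranged from 0 to 1960 CPM in high cells (median 233) and from 0 to 185 in low cells (median 0). It was detected in 13 high, 5 middle and 5 low cells, and no low cell reached the high median. The pools held 453 and 31.8 CPM, a log2 fold of 3.79 (bounds 3.60 to 3.98), and 4.63 without cell 36. Middle cells, at 36.8 CPM, were close to the low side for Rgs1.

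Trib1, a pseudokinase that directs the breakdown of C/EBP factors, had 1852 reads on the high side and 1 on the low side, a ratio of 1716 (interval 308 to 67820). Cell 19 held 51.2% of the reads of Trib1, which was detected in 6 high cells at 200000 reads. Zfp36, also called tristetraprolin, which speeds the decay of cytokine mRNAs, ranged from 0 to 1094 CPM in high cells (median 42.4) and from 0 to 322 in low cells (median 0). The pooled log2 fold of Zfp36 was 2.05, 1.53 without cell 21 and 2.71 without cell 1, and its middle cells, with a median of 72.7 CPM, stood above both sides. Dusp1, a phosphatase of MAP kinases, was detected in 5 high cells and 1 low cell, with a log2 fold of 2.91. Without cell 39, which held 51.2% of the reads of Dusp1, it was 1.77, and without low cell 38 it was 7.23. Ranked by Ccl4 alone it was 0.68. Dusp5, a nuclear phosphatase of ERK, stood at 1.10, and at 0.29 without its top cell. Rgs2 and Klf6, regulators detected in nearly all cells, differed by log2 folds of 0.80 and 0.76.

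The 4 members that were lower were Gadd45b, a stress-response protein (log2 fold -2.94), Zfp36l1, a relative of Zfp36 (-2.98), Spry2, an inhibitor of receptor tyrosine kinase signals (-1.75), and Rhob, a small GTPase (-1.49). Gadd45b, Zfp36l1 and Rhob had 40.9% to 58.2% of their reads in 1 low cell. Without cell 1 Rhob stood at -0.46, under 2-fold, and Zfp36l1 at -1.83. When cells were ranked by Ccl4 alone, Spry2 turned to 1.90, and Gadd45b, Zfp36l1 and Rhob stood at -0.54, -0.58 and -0.65, under 2-fold.

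Over all 46 CD34-negative cells the summed immediate-early level had a Spearman rho of 0.53 with summed Ccl3 and Ccl4 (Pearson r 0.52). In the 46 CD34-positive cells, which had no part in the ranking, rho was 0.19 (Pearson r 0.39). There the factors alone had a rho of 0.10 (Pearson r 0.16) and the regulators 0.31 (0.49). CD34-positive cell 39 was the highest of these cells in both measures, with 3053 CPM of Ccl3 and Ccl4 and 4005 of immediate-early genes. Cells are not replicates and differ in depth and in gene reads per ERCC read, and no p is given.

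**Figure D3:**
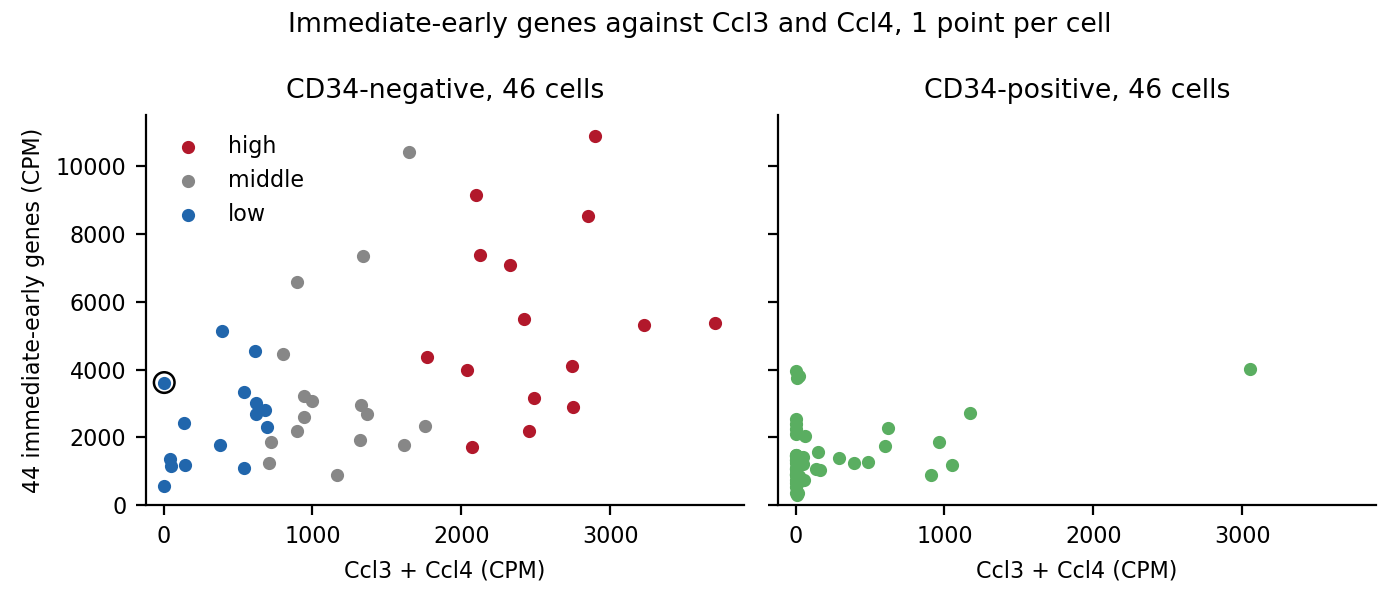
Each point is a cell, with summed Ccl3 and Ccl4 on the x axis and the summed level of the 44 immediate-early genes on the y axis, both in CPM, for CD34-negative cells (left, coloured by side, cell 10 ringed) and CD34-positive cells (right). The high cells spread from 1710 to 10885 CPM and the low cells from 583 to 5127.

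The measured NF-kappaB factors and feedback genes were higher more often than lower. Of 24 listed 17 were measured, 10 of them higher and 7 lower by any amount, with a median log2 fold of 0.64. At least 2-fold higher were 6, and at least 2-fold lower 0. Without cell 10, 6 of 15 were at least 2-fold higher and 0 at least 2-fold lower, with a median of 0.68. Outside the 17, Relb had 3 reads on the high side and 113 on the low side, a ratio of 40.7 (interval 13.6 to 200). Bcl3 had 0 and 250 reads. The median over the 17 was 0.12 without cell 21 and turned to -0.16 when genes read in few cells were let in. Nfkb1, the p105 precursor of the p50 subunit, ranged from 0 to 1783 CPM in high cells (median 403) and from 0 to 778 in low cells (median 146), with a log2 fold of 1.11, and 0.85 without cell 33. Tnfaip3, or A20, an inhibitor of NF-kappaB, had a log2 fold of 1.74, but 0.04 when cells were ranked by Ccl3 alone. The ubiquitin ligases Birc2 and Birc3 stood at 1.79 and 1.02, Nfkb2 at 1.07, and Traf1 at 4.50 with 98.0% of its reads in cell 21. Without cell 21 Birc3 stood at 0.34 and Traf1 at -0.10, and without cell 42 Nfkb2 stood at 0.23. Thus Nfkb1, Nfkb2, Birc3 and Traf1 were each under 2-fold once 1 cell was left out. Nfkbia, the inhibitor that NF-kappaB itself induces, had pooled levels of 242 and 156 CPM and medians of 156 and 202 CPM per cell.

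Of 30 listed cytokines, Ccl3 and Ccl4 not among them, 10 were measured, 2 at least 2-fold higher and 2 at least 2-fold lower, near the 14.6% and 22.7% over all genes. Without cell 10, 1 was higher and 2 were lower. Osm, oncostatin M, ranged from 0 to 572 CPM in high cells (median 105) and from 0 to 473 in low cells (median 0), with a log2 fold of 1.25, and 0.76 with ERCC scaling. Ccl6, a chemokine of myeloid cells, ranged from 4.78 to 14290 CPM in high cells (median 5972) and from 4.19 to 7943 in low cells (median 1143), with a log2 fold of 1.00, and 0.00 when ranked by reads per ERCC read. Of the lower pair, Tnfsf14, or LIGHT, stood at -2.28, and at -0.12 when ranked by Ccl4 alone.

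Il4, the cytokine for which basophils are best known, was detected in 14 high and 13 low cells with medians of 127 and 105 CPM and a log2 fold of 0.58. Il6 stood at -0.75, with medians of 76.5 and 201 CPM, and at 0.12 when ranked by Ccl4 alone. Csf1 and Hgf, growth factors of macrophages and epithelia, stood at 0.73 and 0.59, and Ccl9 at 0.24, which changed sign in 7 of 21 alternatives. Il3, Csf2 and Cxcl2, products of activated basophils and mast cells, had no read on either side, and Tnf had 1 read on the high side and 14 on the low side. High cells were thus high in Ccl3 and Ccl4 with no read of these other genes, or 1 in the case of Tnf.

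Genes of the IgE receptor pathway were near the level of all genes. All 22 listed were measured, 2 at least 2-fold higher and 2 lower, with a median log2 fold of 0.10. Without cell 10, 1 of 21 was higher and 1 lower, with a median of 0.18. The receptor chains Fcer1a, Ms4a2 and Fcer1g stood at -0.24, -0.46 and -0.07. Syk, the kinase recruited to the receptor, ranged from 28.3 to 2541 CPM in high cells (median 371) and from 1.10 to 814 in low cells (median 145), a log2 fold of 1.87, and 0.32 among cells with Ctsg under 100 CPM. Lat2, an adaptor of the pathway, ranged from 404 to 1287 CPM in high cells (median 603) and from 3.80 to 1167 in low cells (median 340), a log2 fold of 1.01. Lat2 was under 2-fold in 13 of 21 alternatives, down to 0.50 when ranked by reads per ERCC read. Ptpn6, the inhibitory phosphatase SHP-1, stood at -1.26, and at -0.55 under that ranking, and Pik3r5, a regulatory subunit of PI3-kinase gamma, at -4.50 with 55.2% of its reads in cell 31.

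Surface genes of activation showed 4 of 13 measured at least 2-fold higher and 2 lower, with a median of 0.23, and 4 and 1 without cell 10. Cd44, an adhesion receptor for hyaluronan, had medians of 233 and 17.5 CPM in high and low cells and a log2 fold of 1.43. Itgam, the integrin CD11b, had medians of 120 and 47.7 CPM and a log2 fold of 1.28, and Itga2, the integrin CD49b, a log2 fold of 1.09. Scaling by ERCC reads put Cd44 at 0.94 and Itgam at 0.79. Itga2 was under 2-fold in 9 of 21 alternatives, down to 0.27 when only cells numbered 7 to 42 in the labels were ranked. Cd274, or PD-L1, stood at -1.18, and at -0.46 with 20 cells a side and -0.14 among cells with low Ctsg without cell 10. The common activation markers Cd69 and Cd63 were at -0.71 and 0.02, with Cd69 at 0.57 without cell 1 and -1.63 without cell 39, and Cd200r3, a basophil activating receptor, at 0.23.

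Among cytokine receptors and their JAK-STAT genes 4 of 23 were at least 2-fold higher, near the 14.6% over all genes. At least 2-fold lower was 1, under the 22.7% over all genes, and the median was 0.22. Without cell 10, 3 of 22 were higher and 2 lower. Mcl1, which keeps myeloid cells alive, was the broadest of the 4, with medians of 438 and 157 CPM and a log2 fold of 1.24, but it was under 2-fold in 8 of 21 alternatives, down to 0.57 ranked by Ccl4 alone. The lists for calcium and NFAT signals, eicosanoids and histamine, granule release, heat shock, interferon and glycolysis had median log2 folds between -0.15 and 0.19.

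**Figure D4:**
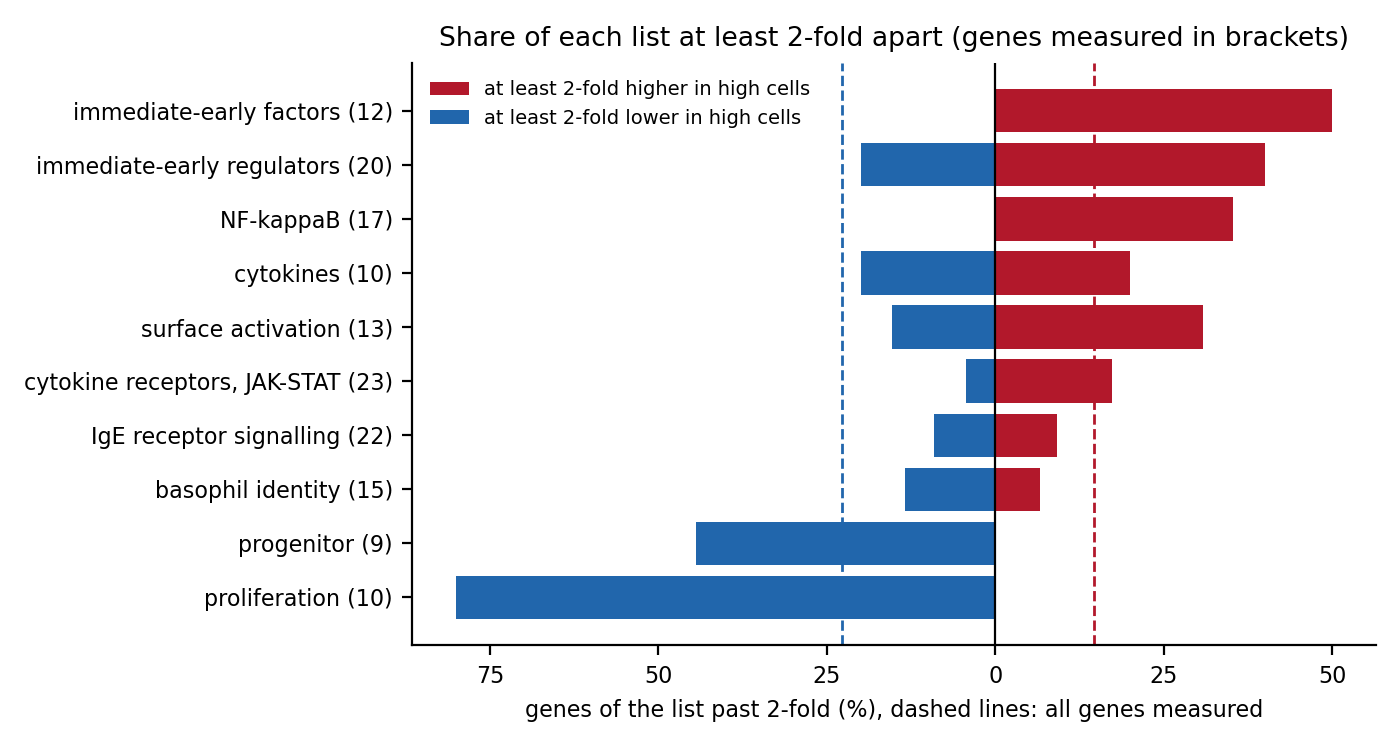
For each list, bars give the share of its measured genes at least 2-fold higher (red, to the right) or at least 2-fold lower (blue, to the left) in high cells, with the number of genes measured in brackets, and dashed lines give 14.6% and 22.7% over all genes. The immediate-early factors have 6 of 12 genes on the right and none on the left, and the proliferation list 8 of 10 on the left.

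Of 9 measured progenitor genes 4 were at least 2-fold lower in high cells and 0 higher, and cells 25, 28 and 36 held 42.8% of the low side's reads of the listed progenitor genes. Mpo, myeloperoxidase, ranged from 0 to 36.7 CPM in high cells (median 1.28) and from 0 to 2114 in low cells (median 1.42), so that the medians lay close together while the pools differed by -6.43 in log2. Ctsg, cathepsin G, had medians of 2.56 and 162 CPM and a log2 fold of -2.19, and Ms4a3 stood at -3.16. Ctsg stood at -0.056 when ranked by reads per ERCC read, and Ms4a3 at -0.36 among cells with Ctsg under 100 CPM, or -0.41 without cell 10. Of 10 measured proliferation genes 8 were at least 2-fold lower and 0 higher, with a median of -3.40. Mki67, the Ki-67 antigen, stood at -4.38 with 46.7% of its reads in cell 36. Without cells 25 and 36 Mki67 stood at -0.58, and ranked by reads per ERCC read at -0.22. Mcm4, a replication helicase subunit, had 1 read in high cells against 577 in low cells, a ratio of 623 (interval 111 to 24640, for counting error only). Its log2 fold was -5.70, but -1.46 among cells with Ctsg under 100 CPM, and -1.37 among these without cell 10.

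Of 15 basophil identity genes, all measured, 1 was at least 2-fold higher and 2 lower, both under the 14.6% and 22.7% over all genes, with a median of 0.13. Gata2, a factor that specifies basophils, had medians of 2823 and 2367 CPM, and Cpa3, a granule carboxypeptidase, 1223 and 1416. Prss34 ranged from 20.6 to 77690 CPM in high cells (median 2480) and from 118 to 92630 in low cells (median 24080), a log2 fold of -1.40. The related protease Mcpt8 had medians of 1577 and 3844 CPM and a log2 fold of -1.49. When cells were ranked by reads per ERCC read, Prss34 stood at 0.05 and Mcpt8 at -0.076. Among cells with Ctsg under 100 CPM Prss34 stood at -0.83 and Mcpt8 at -0.40, and without cell 10 at -1.31 and -0.68.

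Since the low side had the higher pooled levels of Prss34, Mpo and Ctsg, the comparison was repeated among cells with Ctsg under 100 CPM, a limit chosen after the values were seen. Of 27 such cells 11 were high and 6 low. Without cell 10, the 10 highest and 10 lowest of them, with sums of at least 2041 and at most 998 CPM, shared 10 high and 5 low cells with the sides above. Among 7395 genes measured, 19.9% were then at least 2-fold higher and 20.5% lower. Of 29 immediate-early genes 13 were at least 2-fold higher and 3 lower, with a median of 0.85, and 0.42 with cell 10 included.

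In that comparison Fosb stood at 1.74, Jun at 1.95, Jund at 1.49, Fos at 2.63 and Rgs1 at 4.74 in log2. Rgs1 was detected in 10 of 10 high and 3 of 10 low cells, and Fosb in 9 and 3. Junb stood at 0.88, under 2-fold, and was detected in 5 cells on each side. The folds of Fosb, Fos, Jun, Jund and Junb were thus all smaller than between the 15 and 15 cells, that of Rgs1 was larger, and Syk (0.40), Nfkb1 (0.47) and Ccl6 (0.13) were also smaller. The fold of Mpo turned to 0.64 and that of Mki67 to 0.90, and that of Prss34 was -1.31.

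The receptors Ccr2 and Ccr3 are listed as markers of monocytes and eosinophils. Ccr2, the receptor of Ccl2, ranged from 21.2 to 1504 CPM in high cells (median 458) and from 0 to 977 in low cells (median 55.5), with a log2 fold of 1.46. It stood at 0.36 when ranked by reads per ERCC read and at 0.43 among cells with Ctsg under 100 CPM. Cell 10 had the highest Ccr2 level on the low side. Ccr3, the eotaxin receptor, had medians of 62.2 and 0 CPM and a log2 fold of 2.40. Siglecf, the only other measured gene of the eosinophil list, stood at -1.20, at -0.13 without cell 5 and at 0.12 among cells numbered 7 to 42. The summed monocyte, macrophage and dendritic list was 21.2 to 2741 CPM in high cells and 0 to 20871 in low cells, the latter value being that of cell 10. Its medians were 461 CPM in high and 55.5 in low cells, the pools without cell 10 held 776 and 219 CPM, and its Spearman rho with summed Ccl3 and Ccl4 over the 46 cells was 0.37 (Pearson r -0.14). Of the 13 genes of this list only Ccr2 was measured, and the list medians are close to those of Ccr2. The part of these levels in the results was not tested, and no high cell had a read of C1qa or C1qb.

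Genes with reads in at least 10 of the 30 cells and at least 10 CPM in a pool, which leaves out Fos and Trib1, were ranked by the smallest of 3 log2 folds (summed reads, mean per cell, and without the top cell). The 12 highest were Dennd4c, Abraxas2, Gripap1, Chm, Fosb, Dnase2b, Lpxn, Rpf1, Rgs1, Lgals4, Lrig2 and Clcn4. Dennd4c, an activator of Rab10, was detected in 10 high cells and 1 low cell with a log2 fold of 5.04. Gripap1, an endosomal protein, was detected in 9 and 5 cells (4.60), and Clcn4, a chloride and proton exchanger, in 9 and 3 (3.41). Lgals4, a galectin, was detected in 7 high cells and 1 low cell (3.56). Ranking by Ccl4 alone put Dennd4c at 0.31, Abraxas2 at 0.18, Lrig2 at 0.32 and Clcn4 at 0.16, all under 2-fold, and with 20 cells a side Lgals4 stood at 0.78. Ranking by reads per ERCC read put Lpxn at 0.89 and turned Dnase2b to -0.38.

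The 12 lowest were Rbmx, Nsd2, Mpo, Creld2, Cenpj, Tstd2, Dnm1l, Rbl1, Enpp5, Dennd1a, Myo5a and Txndc9. Rbmx, an RNA-binding protein of splicing, had 5 reads in high cells and 1313 in low cells, a log2 fold of -6.46. Dnm1l, the dynamin that divides mitochondria, was detected in 2 and 8 cells (-5.88). Myo5a, a motor that carries granules, had 2 reads in high cells and 335 in low cells, a ratio of 181 (interval 49.6 to 1499). Ranking by Ccl4 alone turned Cenpj to 1.19 and put Creld2 at -0.55 and Txndc9 at -0.40, and among cells with low Ctsg Mpo turned to 0.58. Among CD34-positive cells Rbmx was detected in 36 of 46 and Myo5a in 31 of 46.

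The genes whose rank over the 46 cells was most like that of summed Ccl3 and Ccl4, among 4367 with a read in at least 23 cells, were Fxyd5 (Spearman rho 0.54), Lat2 (0.53), Rgs1 (0.51), Csk (0.48), Jund (0.47), Jun (0.46), Iqgap1 (0.45) and Ncor1 (0.44). A rho of at least 0.3 was reached by 119 of these genes (2.73%). Fxyd5, or dysadherin, had medians of 1635 and 1111 CPM in high and low cells, Csk, a kinase that restrains Src family kinases, 580 and 144, and Iqgap1, a scaffold of actin and MAP kinase signals, 1761 and 825. In CD34-positive cells the rho was 0.40 for Fxyd5, 0.27 for Lat2, 0.29 for Iqgap1 and 0.21 for Ncor1, and between 0.01 and 0.09 for Rgs1, Csk, Jund and Jun. At the other end stood Gm5850 (-0.54), Ehmt2 (-0.51), Taf15 (-0.51), Zfp280d (-0.50), Ptprs (-0.50), Utrn (-0.48), Pml (-0.47) and Agtrap (-0.47). The cells behind these values are not replicates, and depth and composition differ between cells.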

How the data were processed

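Single cells were index-sorted and their polyadenylated RNA was amplified with 19 cycles and read as 50-base single reads, per the labels' protocols. Per the submitters' processing notes, reads were aligned with GSNAP to mm10 and counted with HTSeq 0.5.3p3; the annotation and the strand setting are not given in the sources used here, so overlapping and antisense genes are uncertain. The authors deposited whole-number read counts per gene, not normalized, in 1 table with 46078 mouse gene identifiers and 92 ERCC sequences. Symbols were matched for 45143 identifiers; 935 had none.

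Reads carry no molecular identifiers. CPM used gene reads only. Pools of 15 cells were compared as log2((CPM + 1)/(CPM + 1)) over genes with a read in at least 5 of 30 cells, and a gene counts as differing past 2-fold. Detection was compared after 1 random draw of 200000 reads per cell, so counts of cells near 0 reads can differ in another draw. Poisson, binomial and order-statistic intervals (95%) cover counting error only, and floors are 3 reads. Cells are not replicates, since the mice are not assigned, so no test was run; numpy 2.4.6, pandas 2.3.3, scipy 1.17.1, edgeR 4.0.16 (TMM factors) and scran 1.30.0 (size factors) were used. The scripts were tested on simulated data. Each cell was sorted singly and no doublet caller was run.

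The 12 named genes in each direction had reads in at least 10 of the 30 cells and at least 10 CPM in a pool, and were ranked by the smallest of 3 log2 folds of 1 sign; 8 genes at each end of the rank correlation were named, and list members were named as examples. The cells, lists and rules were chosen with earlier results of these data known. Cell 10 and the cells with low Ctsg were singled out after their values were seen. Coordinates are from GENCODE M21 (GRCm38) and promoter sequences from RefSeq (GRCm38.p6). Alternatives changed the ranking, the number of cells, the scaling, the pseudocount and the filters, and left out each cell in turn.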

Additional observations from a re-analysis of the deposited data

Results flagged for a closer look

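CD34-negative cell 20 was left out of the ranking because it had 24565 gene reads, under the minimum of 50000. It held 147 reads of Ccl3 and 2 of Ccl4, a summed level of 6066 CPM, above the 3704 CPM of the highest cell that was ranked. It is named because the signal lies in a cell that the comparisons do not use.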

How the results depend on the processing

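The count of genes at least 2-fold higher moved from 1429 to 839 with ERCC scaling, 918 without the top cell of each gene, 945 with a pseudocount of 10 CPM and 2528 with no filter on low genes. The count of lower genes moved from 2212 to 1474 with that pseudocount and 4343 with no filter. The immediate-early median moved from 0.78 to 0.50 with 20 cells a side, 0.48 ranked by Ccl3 alone, 0.49 ranked by reads per ERCC read, 0.42 among cells with Ctsg under 100 CPM, 0.29 with ERCC scaling and 0.32 without the top cell of each gene; it was above 0 in each of the 21 alternatives. The NF-kappaB median turned to -0.16 with no filter. The difference in genes per cell at a fixed depth, -248, turned to 84 ranked by reads per ERCC read.

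Leaving out each of the 30 cells gave 1398 to 1494 genes higher, 2004 to 2292 lower, list medians of 0.74 to 0.90 (immediate-early), 0.12 to 0.83 (NF-kappaB, lowest without cell 21) and 0.41 to 0.75 (cytokines), log2 ratios of immediate-early medians per cell of 0.99 to 1.16, and differences of -348 to -202 genes per cell.

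Of 93 genes followed, 73 were past 2-fold, and 64 of these kept 1 sign in the 21 alternatives. Of the 73, 22 stayed past 2-fold in each of these and 51 were under 2-fold in at least 1, with 25 under it ranked by Ccl4 alone, 18 among cells with Ctsg under 100 CPM, 17 ranked by reads per ERCC read, 15 ranked by Ccl3 alone and 14 with ERCC scaling. Those that changed sign were Dnase2b (-0.38) and Prss34 (0.048) ranked by reads per ERCC read, Junb (-0.50) ranked by Ccl3 alone, Siglecf (0.12) among cells numbered 7 to 42, Cenpj (1.19) and Spry2 (1.90) ranked by Ccl4 alone, Traf1 (-0.10 without cell 21, 4.84 without cell 10), and, among cells with Ctsg under 100 CPM with and without cell 10, Mpo (0.58 and 0.64) and Mki67 (1.24 and 0.90). Leaving out 1 cell moved the fold of 50 of the 73 genes by over 1.5 times. Of the 20 genes under 2-fold, 11 changed sign in at least 1 alternative. The cause was not tested. Scaling by scran size factors put 54.4% of genes higher, TMM 50.4% and ERCC reads 29.7%, against 47.0%. No paired analysis was possible because the cells of a side share no numbered partner. Depth limits genes with few reads, and nothing here covers differences between mice.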
